A study of Mus musculus with 12 samples.

Results

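Liver RNA of mice that received an adenovirus for ANGPTL8 (the group ANG8, 3 libraries) was compared with liver RNA of mice that received an adenovirus for green fluorescent protein (the group Ad_GFP, 3 libraries). These 6 libraries were taken by their group labels from a series of 12, whose other 6 libraries (shCtrl and shANG8) belong to a knockdown arm and are used below only as a range. Every mouse was wild-type, per the labels, the series title speaks of chow-fed animals, and the liver was taken after 9 days of treatment. Both groups therefore share an adenoviral infection, and the comparison asks which liver transcripts differ when the virus carries ANGPTL8 in place of the fluorescent protein. The labels do not name the promoter of the virus, the species of the ANGPTL8 sequence, the dose, or the sex and age of the mice. Nor do they state that each library is a different animal, and the spread behind the p-values may therefore be technical in part. The tissue was bulk liver, in which fewer cells of a type and less RNA per cell cannot be told apart.

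ANGPTL8 is a small secreted protein of liver and fat that rises with feeding and restrains lipoprotein lipase in muscle and heart, so that circulating triglyceride is directed to fat. Most transcripts of liver come from hepatocytes, which make plasma proteins, lipoproteins, bile acids and glucose and clear drugs and hormones, while resident macrophages (Kupffer cells) and lymphocytes contribute a smaller part. Adenoviral vectors enter mainly hepatocytes and Kupffer cells and draw an interferon and T cell response in their own right, also when they carry a reporter only.

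The 6 libraries held 12702665 to 15144312 counts. Genes of the mitochondrial genome took 19.8%, 34.9% and 26.4% of the counts in the Ad_GFP libraries and 39.0%, 43.8% and 22.5% in the ANG8 libraries, and these ranges overlap (difference of 8.06 percentage points, exact two-sided permutation test, p = 0.3, with 0.1 as the lowest value such a design can reach). The first principal component held 50.9% of the variance and ran from -52.9 to -25.2 in Ad_GFP and from 38.1 to 45.5 in ANG8. The second held 18.3% and set the libraries with a high mitochondrial share (Ad_GFP replicate 2 at -35.2, ANG8 replicate 2 at -23.7 and ANG8 replicate 1 at -13.0) apart from the other 3 (13.4 to 30.1). Hepatocyte-defining genes were abundant in all libraries: 12 markers, albumin among them, summed to 48000 to 71300 CPM (counts scaled to a common library total) in Ad_GFP and 27200 to 56400 CPM in ANG8. Kidney and skeletal muscle markers summed to at most 0.35 and 4.75 CPM.

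The targeted gene was read first. Angptl8 (ENSMUSG00000047822), a protein-coding gene on the plus strand of chromosome 9 (GRCm38, 21835510 to 21837347), stood at 99.6, 82.9 and 93.6 CPM in Ad_GFP and at 169.7, 323 and 179.5 CPM in ANG8. All ANG8 libraries lay above all Ad_GFP libraries, with a log2 fold change of 1.28 (SE 0.24, edgeR adjusted p = 0.00507). The libraries that received the control hairpin virus averaged 299 CPM, so the ANG8 level did not exceed that of every control in the series. How many of these counts come from the virus was not tested.

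Of 14070 genes tested, 2123 (15.1%) differed between the groups at an edgeR adjusted p under 0.05, 1208 of them (8.59%) higher and 915 (6.5%) lower in ANG8. The rises were larger and sat at lower levels than the falls. Among rises the median log2 fold change was 1.19 and the median level 11.7 CPM, and among falls they were -0.96 and 48.9 CPM. At least 2-fold changes were seen in 817 rises and 434 falls, and at least 8-fold changes in 27 and 21. Over all tested genes the median log2 fold change was 0.005. The count rested in part on single libraries: 933 genes (615 higher, 318 lower) were called without ANG8 replicate 1 and 1339 (763 higher, 576 lower) without Ad_GFP replicate 1, and the falls numbered 601 without ANG8 replicate 2. A core of 769 genes, 500 higher and 269 lower, was called in the reported fit and in all 17 alternatives, and no called gene changed its direction in any of them.

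The balance of rises and falls differed by level. Among the 100 most abundant genes 35 were called lower and 6 higher, and among the 50 most abundant the counts were 17 and 3. Between 3 and 10 CPM the balance was the other way, with 399 of 3121 genes higher and 118 lower. The genes called lower together took 22.3%, 18.4% and 18.4% of all counts in the Ad_GFP libraries and 9.34%, 8.92% and 11.6% in the ANG8 libraries. The genes called higher took 2.64%, 2.36% and 3.02% against 6.14%, 5.63% and 7.26%. These shares describe genes that the same comparison selected and carry no test. Among the controls, Ad_GFP replicate 3 lay nearest to ANG8: it was the highest of its group for 707 of the 1208 rises and the lowest for 506 of the 915 falls.

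**Figure D1:**
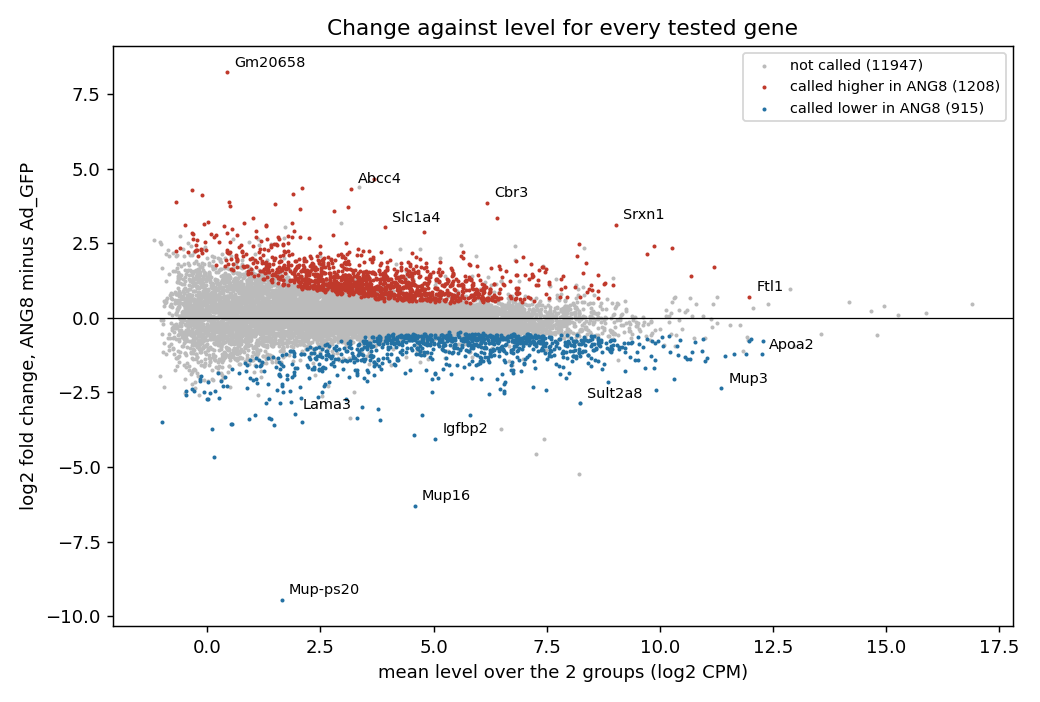
Log2 fold change (ANG8 minus Ad_GFP) against the mean level over both groups (log2 CPM) for the 14070 tested genes, 1 point per gene, with the 1208 genes called higher in red, the 915 called lower in blue and the rest in grey. Falls crowd the abundant end at the right, where 35 of the 100 most abundant genes were lower, and the rises spread over the scarcer genes to the left.

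The other libraries of the series gave a wider range to set these changes against. In 1011 of the 1208 rises and 691 of the 915 falls the 3 ANG8 libraries lay outside the range of all 9 other libraries, which held for 2878 (20.5%) of the tested genes. The 9 include the 3 Ad_GFP libraries, and the rises and falls were selected by the comparison with these. The counts among called genes therefore carry no test. The ANG8 and Ad_GFP libraries did not overlap in 4905 (34.9%) of the tested genes and in 2104 of the called ones.

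Among the 20 largest rises, Srxn1 and Slc1a4 also had some of the smallest p-values. Srxn1, which encodes sulfiredoxin, the enzyme that repairs overoxidised peroxiredoxins (ENSMUSG00000032802, chromosome 2, 152105516 to 152111376, plus strand), stood at 109.7, 72.5 and 142 CPM in Ad_GFP and at 889.8, 872 and 1048 CPM in ANG8. Its groups were far apart, with a log2 fold change of 3.12 (SE 0.26, adjusted p = 0.000163). Slc1a4, a transporter of alanine, serine and cysteine (ENSMUSG00000020142, chromosome 11, 20302180 to 20332713, minus strand), was even in the controls at 3.19, 3.13 and 3.57 CPM and reached 26.8, 18.7 and 35.6 CPM (log2 fold change 3.03, SE 0.26, adjusted p = 0.000163). Gclc, the catalytic subunit of the enzyme that opens glutathione synthesis (chromosome 9, 77754535 to 77794485), went from 314, 225 and 398 CPM to 1409, 1242 and 1460.0 CPM (log2 fold change 2.13, SE 0.24). Both Srxn1 and Gclc were also among the 10 most abundant genes called higher. The carbonyl reductase gene Cbr3 rose from 5.14, 5.42 and 17.6 CPM to 125, 132 and 149.7 CPM (log2 fold change 3.85, SE 0.50, adjusted p = 0.00358), with Ad_GFP replicate 3 as the high control. That call was lost when all 12 libraries entered the fit (adjusted p = 0.0759), as was the call of Slc7a11, the cystine importer of glutathione synthesis (log2 fold change 3.12, adjusted p = 0.00272 and 0.106 with 12 libraries).

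Further large rises came from genes with little RNA in the control livers. Abcc4, an efflux pump of the basolateral membrane for bile acids and other organic anions (ENSMUSG00000032849, minus strand of chromosome 14, 118482692 to 118706219), stood at 0.33, 1.3 and 0.98 CPM in Ad_GFP and at 13.1, 16.98 and 21.5 CPM in ANG8 (log2 fold change 4.32, SE 0.39, adjusted p = 0.000284). Elovl7, an elongase of long-chain fatty acids, went from 0.46, 0.15 and 0.56 CPM to 5.53, 6.25 and 12.7 CPM (log2 fold change 4.34, SE 0.50, adjusted p = 0.000451). Every ANG8 library exceeded every control by a wide margin in both genes. Fndc10 (log2 fold change 3.71), Coro6, a coronin that binds actin (3.64), Pdcd1, the inhibitory T cell receptor PD-1 (2.71), and Ubd, a ubiquitin-like protein induced by interferon gamma and tumour necrosis factor (2.89), likewise kept their calls in every alternative. Apela (4.13) and Slc1a1 (3.80) also did, but 26.8% of the Apela transcript is shared with Gm45886, and 31.9% of the exon bases of Slc1a1 overlap a transcript on the opposite strand.

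Some of the largest fitted rises were less firm. Tekt5, a tektin of sperm flagella, had a log2 fold change above those of all genes just named (4.65, SE 1.08, adjusted p = 0.0471). Its call was lost without Ad_GFP replicate 1 (0.146), Ad_GFP replicate 2 (0.081) or any ANG8 replicate (0.0892, 0.0856 and 0.0667). The call was also lost when the mitochondrial share entered the fit (0.0517) and without the filter on low counts (0.128). Tnfrsf14, the herpesvirus entry mediator, read 15.6 and 19.8 CPM in ANG8 replicates 1 and 2 but 3.04 CPM in replicate 3, against 0.65 to 1.61 CPM in the controls. Its call (log2 fold change 3.58, adjusted p = 0.0195) was lost without Ad_GFP replicate 1 (0.0852) or Ad_GFP replicate 2 (0.107). Ly6d, a surface protein that liver holds at a low level, rose from 5.47, 10.8 and 28.7 CPM to 130.2, 89.98 and 239 CPM (log2 fold change 3.35, adjusted p = 0.0377). It lost its call without Ad_GFP replicate 2 (0.153) or any ANG8 replicate (0.0762, 0.051 and 0.0786). The call was also lost when the mitochondrial share entered the fit (0.0861), without the filter on low counts (0.119) and with all 12 libraries (0.0724).

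**Figure D2:**
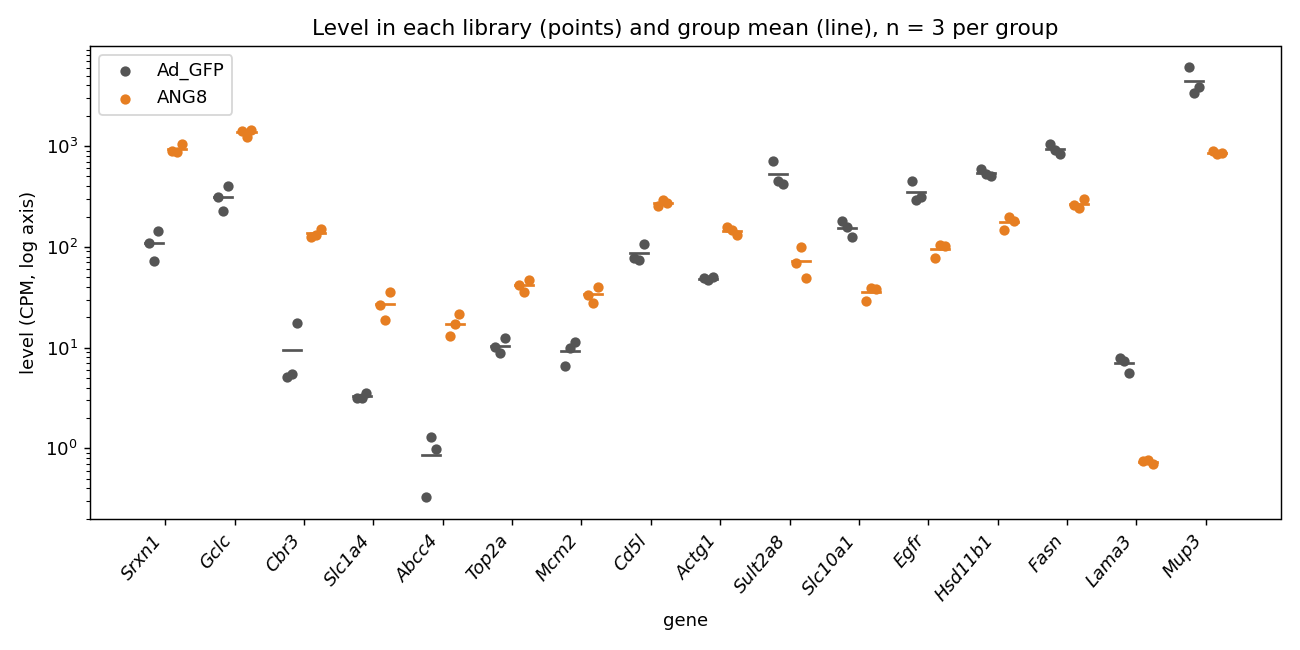
Level of 16 named genes in every library (CPM, log axis), with Ad_GFP in grey, ANG8 in orange, 1 point per library and a line at each group mean (n = 3). In each of these genes the 3 ANG8 points lie wholly above or wholly below the 3 Ad_GFP points, as with Srxn1 (872 to 1048 against 72.5 to 142 CPM) and Sult2a8 (49.1 to 100.4 against 422 to 715 CPM). The genes were picked from called genes, and naming by size of change, p-value or level required this separation. It is therefore no separate result, and it held for 34.9% of all tested genes.

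Several abundant hepatocyte genes were among the falls. Sult2a8, a hepatic sulfotransferase of bile acids (ENSMUSG00000030378, chromosome 7, 14410686 to 14446769, minus strand), stood at 715, 454 and 422 CPM in Ad_GFP and at 68.5, 100.4 and 49.1 CPM in ANG8 (log2 fold change -2.87, SE 0.30, adjusted p = 0.000435). Slc10a1, the sodium-dependent carrier that takes bile acids up from blood (chromosome 12, 80953183 to 80968705), went from 182, 159 and 125 CPM to 28.8, 39.0 and 38.0 CPM (log2 fold change -2.14, SE 0.20, adjusted p = 0.000318). Neither gene showed any overlap between the groups. Hsd11b1, which regenerates active glucocorticoid in liver, fell from 589.9, 524 and 509.7 CPM to 146, 199 and 180 CPM (log2 fold change -1.63, SE 0.19). Egfr, the receptor of epidermal growth factor, fell from 449, 295 and 312 CPM to 77.6, 103 and 102 CPM (log2 fold change -1.90, SE 0.22, adjusted p = 0.000451). Fasn, the fatty acid synthase, and Lipc, hepatic lipase, fell by 1.79 and 1.89 on the log2 scale. All 6 kept their calls in every alternative.

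Further falls were seen across a wide range of levels. Lama3, the laminin alpha 3 chain, stood at 7.88, 7.41 and 5.6 CPM in Ad_GFP and at 0.75, 0.76 and 0.7 CPM in ANG8, a tight pair of groups (log2 fold change -3.23, SE 0.35, adjusted p = 0.000403). Il1rap, the shared accessory chain of the interleukin 1 and interleukin 33 receptors, went from 147, 135 and 138 CPM to 44.3, 58.6 and 47.5 CPM (log2 fold change -1.48, SE 0.17). Igfbp5, which binds insulin-like growth factors outside the cell, fell by 2.70 on the log2 scale. Igfbp2 had a larger log2 fold change (-4.06, SE 0.84, adjusted p = 0.0345), but its control libraries spread from 17.7 to 121 CPM against 2.72 to 4.82 CPM in ANG8, and the call was lost without Ad_GFP replicate 3 (0.0529) or any ANG8 replicate (0.104, 0.111 and 0.121). At the abundant end, Mup3, a major urinary protein, dropped from 6040.0, 3329 and 3846 CPM to 897, 837 and 849 CPM (log2 fold change -2.36, SE 0.27, adjusted p = 0.000451). Mup16, Mup1, Mup13 and Mup19 fell further in the fit, yet 90.7% to 100% of each transcript is shared with other urinary protein genes, so the counting could divide their reads in more than 1 way. The call of Mup16 was also lost without any ANG8 replicate (0.0817, 0.101 and 0.0938). The same held when the mitochondrial share entered the fit (0.0768) and without the filter on low counts (0.0625).

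Cell division genes were higher in ANG8. The background for every list and family is the share over all tested genes, 8.59% higher and 6.5% lower. Of 33 tested DNA replication genes 18 (54.5%) were called higher and 1 lower. Of 35 spindle and kinetochore genes 23 (65.7%) were called higher and none lower. Over these lists the median log2 fold change was 0.99 for DNA replication, with 32 of the 33 genes on the higher side. Top2a, the topoisomerase that untangles sister chromatids (ENSMUSG00000020914, chromosome 11, 98992943 to 99024189, minus strand), went from 10.2, 8.78 and 12.4 CPM to 41.5, 35.6 and 47.2 CPM (log2 fold change 1.99, SE 0.19, adjusted p = 0.000318). Mcm2, part of the replicative helicase, went from 6.51, 10 and 11.4 CPM to 33.6, 27.9 and 40.4 CPM (log2 fold change 1.87, SE 0.23), and Ccne1, the cyclin that opens the S phase, from 7.55, 7.79 and 9.86 CPM to 48.0, 27.4 and 37.8 CPM (2.17, SE 0.23). Tpx2 (2.12), Kif22 (1.54), Ect2 (1.84) and Hmmr (2.73), which build or position the spindle, rose as well, and so did the transcription factor E2f1 (1.63). The called genes were fewer without ANG8 replicate 1 (8 replication and 12 spindle genes), without Ad_GFP replicate 1 (10 and 14), without Ad_GFP replicate 2 (15 spindle genes) and without ANG8 replicate 3 (14 spindle genes).

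Within these lists a pair of members went against the rest. Mcm10, which loads the DNA polymerase at replication forks, was the 1 replication gene called lower, at 84.8, 85.2 and 82.0 CPM in Ad_GFP and 46.2, 51.4 and 36.0 CPM in ANG8 (log2 fold change -0.92, SE 0.17, adjusted p = 0.00488). Blm, the helicase lost in Bloom syndrome, was the 1 gene of the DNA repair list called lower, at 18.0, 31.4 and 15.4 CPM against 7.99, 5.49 and 9.18 CPM (log2 fold change -1.51, SE 0.29, adjusted p = 0.00579), while 5 of the 23 tested members of that list were higher (2 without Ad_GFP replicate 1, 1 without ANG8 replicate 1 and 3 without ANG8 replicate 2). Both falls kept their calls in every alternative. In the list of nucleotide and one-carbon synthesis, Ctps, which makes CTP (log2 fold change 1.31), Impdh1, the first enzyme of guanine nucleotide synthesis (1.56), and the mitochondrial enzyme Mthfd1l (1.76) rose, in all 6 of 26 with 2 called lower. Without Ad_GFP replicate 1 or ANG8 replicate 1 there were 3 higher and 0 lower, without ANG8 replicate 3 there were 3 higher, without Ad_GFP replicate 2 or ANG8 replicate 2 there were 0 lower, and without Ad_GFP replicate 3 there was 1 lower.

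The promoters of Top2a and Hmmr are shown because the CCAAT box, which binds the factor NF-Y and is known from promoters of the later cell cycle, stands in them 6 and 5 times. They are the 250 bases before the RefSeq start on GRCm38.p6, chr11:99024190-99024439 and chr11:40733438-40733687, both on the minus strand, with each CCAAT or its reverse complement in capitals.
Top2a: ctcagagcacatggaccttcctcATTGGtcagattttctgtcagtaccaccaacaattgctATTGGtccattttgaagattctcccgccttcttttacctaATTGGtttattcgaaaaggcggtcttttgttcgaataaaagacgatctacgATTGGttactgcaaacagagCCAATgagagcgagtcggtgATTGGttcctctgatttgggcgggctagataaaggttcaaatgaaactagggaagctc
Hmmr: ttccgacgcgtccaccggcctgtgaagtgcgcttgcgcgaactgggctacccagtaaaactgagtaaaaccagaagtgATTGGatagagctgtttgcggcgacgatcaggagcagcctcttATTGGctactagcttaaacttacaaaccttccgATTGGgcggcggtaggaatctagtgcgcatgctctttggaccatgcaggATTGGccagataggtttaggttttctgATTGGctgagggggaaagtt
The box is common: at least 1 match was found in 39.1% of the promoters of genes called higher, 43.8% of those called lower, 35.9% of those not called and 33.8% of all 32851 promoters of this length. A match is a string in this window and no evidence of binding.

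**Figure D3:**
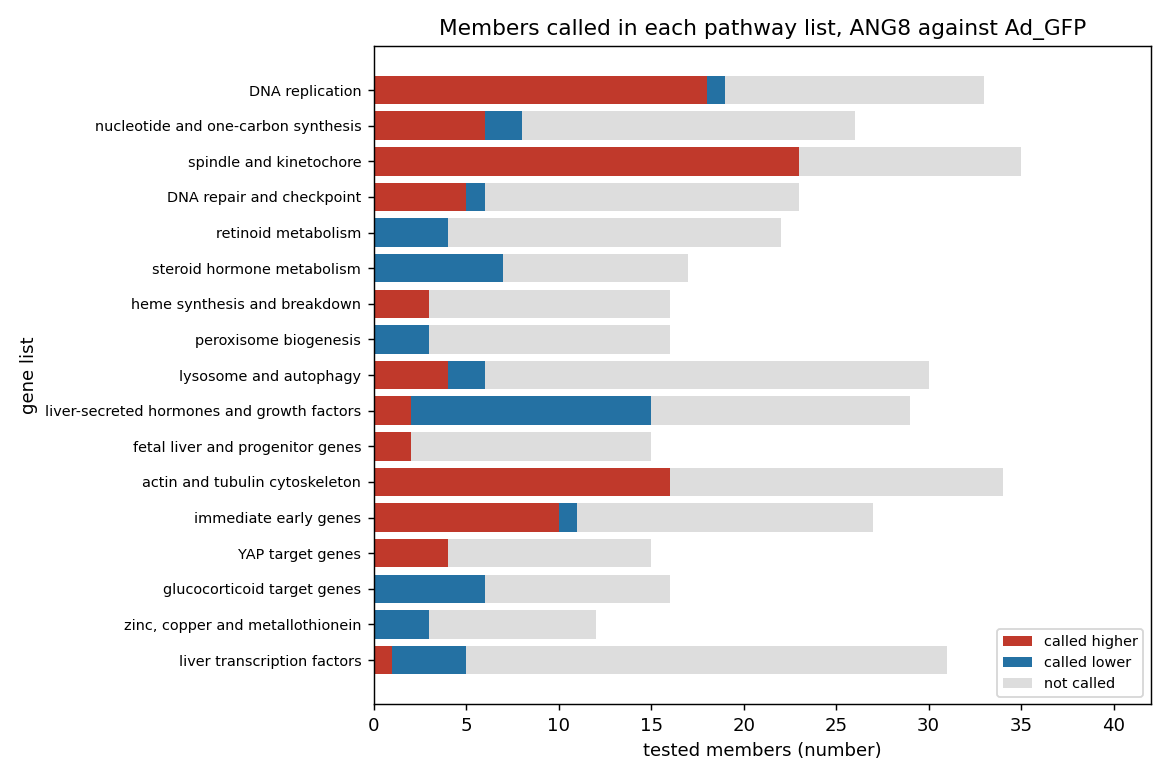
Number of tested members of each of 17 pathway lists called higher (red), called lower (blue) or not called (grey) in ANG8 against Ad_GFP. Spindle (23 of 35) and replication (18 of 33) genes hold the most rises, and the secreted liver hormones and growth factors hold the most falls (13 of 29).

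Of the cytoskeletal genes, 16 of 34 (47.1%) on the actin and tubulin list were called higher and none lower (9 higher without ANG8 replicate 1). Actg1, cytoplasmic gamma actin, was even within each group, at 48.6, 47.0 and 49.8 CPM in Ad_GFP and 158, 146 and 131 CPM in ANG8 (log2 fold change 1.58, SE 0.17, adjusted p = 0.000403), although 56.7% of its transcript is shared with pseudogenes. Tubb6, a beta tubulin, rose by 1.83 and Msn, moesin, which ties actin to the membrane, by 1.26. Coro1a and Lcp1, actin-binding proteins of leukocytes, are on the list too, and macrophage markers moved in the same direction, as given below. The part of leukocyte RNA in the list was not tested.

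Immediate early genes, which respond to growth factors and stress within minutes, were called higher in 10 of 27 cases and lower in 1 (6 higher without ANG8 replicate 1). Klf6 went from 8.6, 7.64 and 11.3 CPM to 31.2, 21.5 and 36.0 CPM (log2 fold change 1.69, SE 0.23, adjusted p = 0.000976). Dusp6, a phosphatase that switches off ERK kinases, went from 29.8, 22.1 and 25.5 CPM to 58.9, 65.5 and 57.5 CPM (1.23, SE 0.17). Egr1 (1.59) and Btg2 (0.92) rose and kept their calls in every alternative. Dusp4 (2.64) and Dusp5 (1.48), of the same ERK-directed family, rose as well, and of 18 tested dual specificity phosphatases 6 were higher and none lower. Jun stood at 11.1, 20.01 and 29.0 CPM in Ad_GFP and 58.6, 127 and 55.0 CPM in ANG8 (log2 fold change 1.997, adjusted p = 0.0275), and its call was lost without Ad_GFP replicate 2 (0.119) and when the mitochondrial share entered the fit (0.079). Klf10 was the 1 member called lower (-1.09, adjusted p = 0.0302). This did not hold without Ad_GFP replicate 1 (0.0981), Ad_GFP replicate 2 (0.102), ANG8 replicate 1 (0.114) or ANG8 replicate 3 (0.086), nor with all 12 libraries (0.0805).

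Macrophage genes were the marker list with the largest share of rises, 11 of 15 with none lower. Their summed level was 458 to 632 CPM in Ad_GFP and 1110.0 to 1460.0 CPM in ANG8. Cd5l, a protein that Kupffer cells secrete, stood at 78.2, 74.3 and 106 CPM in Ad_GFP and at 252, 289.8 and 271 CPM in ANG8 (log2 fold change 1.65, SE 0.19, adjusted p = 0.000451). Adgre1, which encodes the macrophage marker F4/80, rose by 1.51 and the myeloid transcription factors Spi1 and Spic by 1.36 and 1.59. Hk3, a hexokinase of myeloid cells, stood at 19.6, 20.8 and 20.1 CPM against 68.0, 66.8 and 55.8 CPM (1.66, SE 0.16, adjusted p = 0.000318). Of the lymphoid markers, 7 of 19 T and NK cell genes were higher and 1 lower, with a summed level of 85.1 to 118 CPM against 195 to 215 CPM. Cd8a stood at 13.9, 10.2 and 12.4 CPM against 40.8, 34.9 and 31.2 CPM (1.54, SE 0.19). Cd4 was the member called lower, at 6.77, 5.42 and 8.04 CPM against 3.06, 2.7 and 3.23 CPM (-1.17, adjusted p = 0.0176), a call lost without Ad_GFP replicate 3 (0.0643), ANG8 replicate 1 (0.066) or ANG8 replicate 2 (0.0519).

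For other cell types few markers were called. Endothelial markers (1 of 10 called higher, summed 173 to 236 against 217 to 250 CPM) and stellate cell and fibroblast markers (0 of 10, 52.8 to 163 against 98.3 to 187 CPM) overlapped between the groups. B cell markers (0 of 9) summed to 73.8 to 102 CPM against 54.9 to 79.9 CPM. Erythroid genes were uneven, at 216 to 543 CPM in Ad_GFP, 117 and 161 CPM in ANG8 replicates 1 and 2 and 1860.0 CPM in ANG8 replicate 3. Bile duct markers summed to 23.1 to 80.1 against 70.8 to 138 CPM, with Cftr at 0 in all 6 libraries. Sums of adipocyte markers did not overlap, at 19.7 to 67.6 CPM in Ad_GFP and 87.2 to 114 CPM in ANG8. Of the 8 listed markers only 4 passed the filter, and these were on the higher side. Adipoq, Plin1, Lep and Retn were not tested, with Retn at 0 in all 6 libraries. Most of the sum came from Cidec (means of 20.9 and 54.9 CPM) and Plin4 (16.2 and 25.9 CPM), and neither was called. The 1 called, Fabp4, a fatty acid binding protein of fat cells and macrophages, went from 4.36, 5.96 and 6.36 CPM to 11.8, 14.5 and 21.8 CPM (log2 fold change 1.53, SE 0.27, adjusted p = 0.00332). Klf1, the erythroid transcription factor, was the 1 erythroid gene called, at 5.8, 8.32 and 3.36 CPM against 1.72, 1.52 and 1.14 CPM (-1.995, adjusted p = 0.00648).

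Among gene families of at least 10 tested members, grouped by symbol, the largest shares of rises were in the guanylate-binding proteins and the interferon-induced Ifi genes. Of 10 guanylate-binding proteins, GTPases that attack the compartments of intracellular pathogens, 7 were higher and none lower. Gbp2b went from 14.2, 17.9 and 18.7 CPM to 39.0, 64.1 and 54.0 CPM (log2 fold change 1.63, SE 0.21, adjusted p = 0.000662). Of 26 genes with an interferon-induced (Ifi) symbol 15 were higher (9 or 10 with any 1 library left out). Of 20 tested class I and class II MHC genes 7 were higher and 1, H2-Q10, lower (not called without Ad_GFP replicate 1, Ad_GFP replicate 3, ANG8 replicate 1 or ANG8 replicate 2). The class II chain H2-Aa went from 109.5, 59.0 and 102 CPM to 215, 249.7 and 319 CPM (1.54, SE 0.25, adjusted p = 0.00221). Of 35 interleukin and interleukin receptor genes 12 were higher and 3 lower (6 to 9 higher with any 1 library left out). Il2rb, a chain of the interleukin 2 and 15 receptors (1.498), and Il10ra (1.00) were among the rises. The macrophage and T cell marker sums moved with all of these families, and their part in the counts was not tested.

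The interferon-stimulated response element, the promoter string bound by STAT and IRF factors, was searched on both strands as GAAA, 2 bases of any kind and GAAA. It was found in 6.24% of the 929 promoters of genes called higher, 2.28% of the 657 of genes called lower, 2.64% of the 8797 of genes not called and 2.98% of all 32851. When single libraries were left out its share among rises was 5.44% to 7.48%. The difference rests on 58 promoters of rises, and 4 of them are shown as examples of the string, with 15 bases on each side, capitals for the match and positions on GRCm38.p6: Gbp2b (chr3:142594695-142594734, plus strand), Gbp5 (chr3:142496754-142496793, plus), Aif1 (chr17:35176185-35176224, minus) and Tnfrsf14 (chr4:154928117-154928156, minus).
Gbp2b: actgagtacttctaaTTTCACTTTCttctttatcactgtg
Gbp5: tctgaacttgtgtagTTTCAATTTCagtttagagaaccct
Aif1: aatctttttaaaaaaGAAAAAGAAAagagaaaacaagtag
Tnfrsf14: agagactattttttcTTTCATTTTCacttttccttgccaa
Relative to the start the match begins at -137, -165, -157 and -64 in that order. Sult2a8 and Ugt2b1, which fell, also hold a match.

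Several families of secreted liver proteins held more falls than rises. Of 15 tested coagulation factor genes 8 were lower and none higher, of 36 complement genes 14 were lower and 3 higher, and of 15 apolipoprotein genes 6 were lower and none higher. F7, the factor that starts coagulation with tissue factor, went from 79.2, 71.2 and 44.8 CPM to 27.4, 32.4 and 26.2 CPM (log2 fold change -1.18, SE 0.21, adjusted p = 0.0039). C8a, a chain of the membrane attack complex, went from 511, 287 and 373 CPM to 116, 179 and 137 CPM (-1.44, SE 0.24), and C9, the pore-forming member of that complex, fell by 1.35. The complement genes called higher were C1qb, C1qc and Cfp, which leukocytes make. The counts depended on single libraries. Without ANG8 replicate 1 they were 1 coagulation, 5 complement and 0 apolipoprotein genes, and without Ad_GFP replicate 1 they were 2, 8 and 0. Without ANG8 replicate 2 they were 4, 9 and 2, and without Ad_GFP replicate 3 there were 2 apolipoprotein genes. At an unadjusted p under 0.05 in the reported fit 22 of the 36 complement genes differed in either direction, and DESeq2 called 20 and limma voom 18. The hepatocyte markers moved in the same direction: all 12 were on the lower side, with a median log2 fold change of -0.95, and 5 were called lower (2 without ANG8 replicate 1 and 8 without ANG8 replicate 3). Their part in these falls was not tested.

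Hormones and growth factors that the liver releases showed the same direction, with 13 of 29 lower and 2 higher. Igf1, the liver hormone of growth, stood at 1201, 1208 and 1077 CPM in Ad_GFP and 582, 889.6 and 538 CPM in ANG8 (log2 fold change -0.79, SE 0.23, adjusted p = 0.0347). Fetub, a plasma protease inhibitor, went from 649.6, 404 and 502 CPM to 239, 219.9 and 289 CPM (-1.06, adjusted p = 0.00732). None of the 13 falls was called without ANG8 replicate 1 (for Igf1 0.167, for Fetub 0.0542). The falls of the list numbered 6 to 8 without ANG8 replicate 2 or any Ad_GFP replicate, and Igf1 was lost as well without each Ad_GFP replicate (0.085, 0.0715 and 0.0666) or ANG8 replicate 3 (0.0784). Both rises kept their calls in every alternative. Gdf15, a stress hormone that acts on the hindbrain, went from 17.6, 26.5 and 29.5 CPM to 78.4, 109.3 and 67.2 CPM (1.79, SE 0.24, adjusted p = 0.000915), and Pdgfc, a platelet-derived growth factor, from 0.98, 0.61 and 0.98 CPM to 3.74, 5.24 and 5.51 CPM (2.48, SE 0.39).

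**Figure D4:**
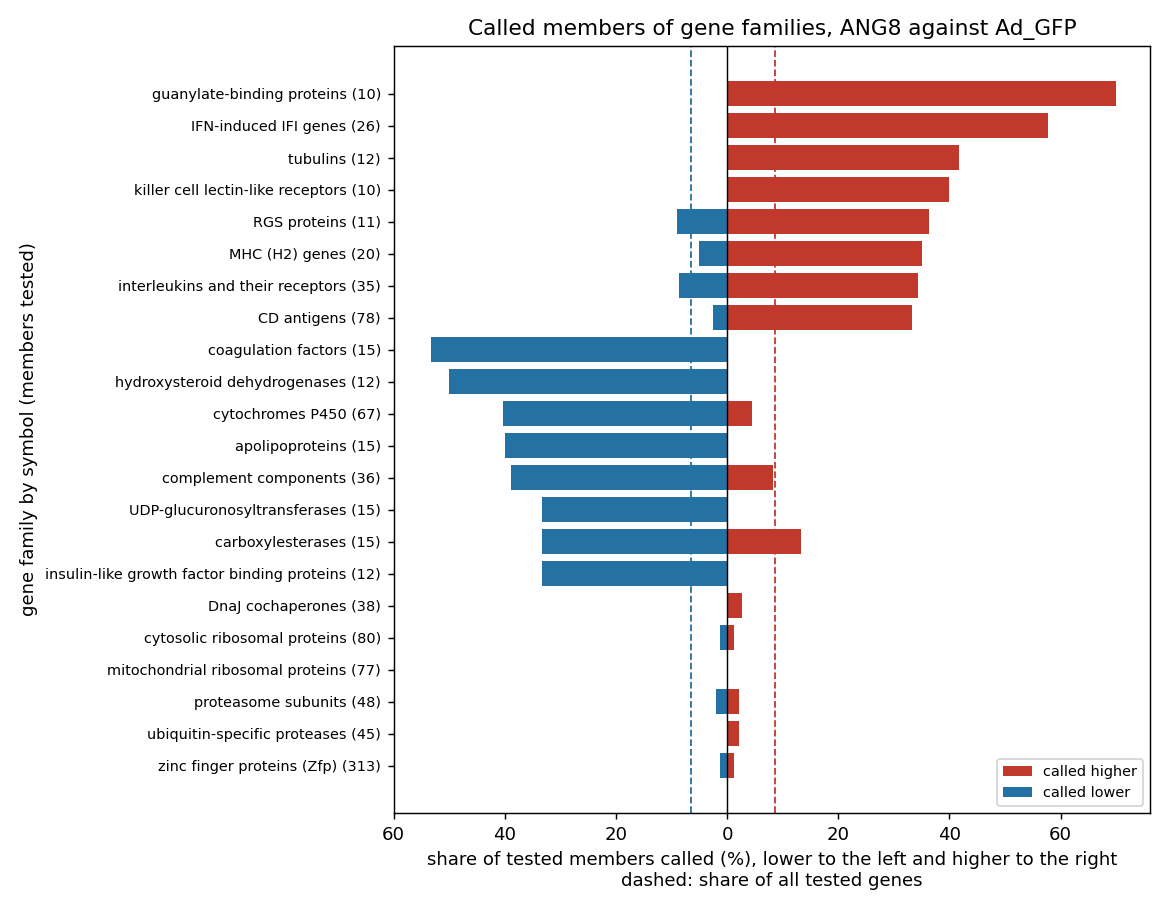
Share of tested members called higher (red, to the right) or lower (blue, to the left) for gene families of at least 10 tested members: the 8 with the largest share of rises, the 8 with the largest share of falls and 6 large families with few calls. Dashed lines mark the shares over all tested genes (8.59% higher, 6.5% lower). Guanylate-binding proteins stand at 70% higher and coagulation factors at 53.3% lower.

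More falls than rises were called in several families of drug metabolism, but not in the glutathione S-transferases. Of 15 UDP-glucuronosyltransferases 5 were lower and none higher, and of 8 sulfotransferases 4 were lower and none higher. Of 15 carboxylesterases 5 were lower and 2 higher, and of 16 aldehyde dehydrogenases 5 were lower and 2 higher. Without ANG8 replicate 1 the falls of these families numbered 3, 2, 3 and 0. In the last 2 families the rises then numbered 0 and 1. Of 67 tested cytochrome P450 genes, the oxidases of drugs, steroids and fatty acids, 27 were lower and 3 higher (14 lower without ANG8 replicate 1). Cyp2e1, which oxidises ethanol and small solvents, went from 1736, 1264 and 1315 CPM to 389, 403 and 549 CPM (log2 fold change -1.69, SE 0.23, adjusted p = 0.000939). Cyp2d40 fell by 1.86 and Cyp4a12b, for which 49.4% of the transcript is shared with Cyp4a12a, by 1.42. The rises were Cyp1a1, the enzyme induced through the aryl hydrocarbon receptor (3.45, 2.75 and 3.22 against 13.7, 12.8 and 16.7 CPM, 2.19, SE 0.24, adjusted p = 0.000403), Cyp2a5 (1.69, with 40.8% of the transcript shared with Cyp2a4 and a pseudogene) and Cyp2g1 (1.06). Cyp2a5 lost its call with all 12 libraries (0.0863), and Cyp2g1 there (0.0737) and without Ad_GFP replicate 1 (0.0846), Ad_GFP replicate 3 (0.0604), ANG8 replicate 1 (0.0708) or ANG8 replicate 3 (0.0826). Of 23 glutathione S-transferases, which couple glutathione to reactive compounds, 6 were called higher and 2 lower. Called or not, 11 of them were on the higher side and 12 on the lower (median log2 fold change -0.205). Without Ad_GFP replicate 1 or Ad_GFP replicate 2 there were 3 higher. The falls numbered 0 without Ad_GFP replicate 1, ANG8 replicate 1 or ANG8 replicate 2, 1 without Ad_GFP replicate 2 or Ad_GFP replicate 3, and 5 without ANG8 replicate 3. Ugdh, which makes the glucuronic acid donor of drug conjugation, rose from 249.8, 259 and 315 CPM to 639, 643 and 529.8 CPM (1.14).

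Steroid hormone metabolism had 7 of 17 genes lower and none higher (4 without ANG8 replicate 1 and 4 when the mitochondrial share entered the fit). Hsd3b3, one of the 3-beta dehydrogenases, went from 112, 124 and 79.2 CPM to 37.7, 48.2 and 39.9 CPM (log2 fold change -1.32, SE 0.20, adjusted p = 0.00156). Ugt2b1, which conjugates steroids for excretion, fell by 1.37. In retinoid metabolism 4 of 22 (18.2%, against 6.5% over all genes) were called lower and none higher, and 8 were on the higher side without a call. The 4 were Aox3, an aldehyde oxidase (477, 364 and 448 against 186, 199 and 141 CPM, -1.29, SE 0.20), Rdh7, a retinol dehydrogenase (-1.16), Rdh16f2 (-1.21) and Rbp4, the carrier of retinol in plasma (-1.26). Rbp4 lost its call without Ad_GFP replicate 1 (0.0568), ANG8 replicate 1 (0.0908) or ANG8 replicate 2 (0.0604). Dhrs3, a retinal reductase, had a log2 fold change of -0.15 and was not called.

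Of 16 glucocorticoid targets 6 were lower and none higher (3 without ANG8 replicate 1). Tat, which degrades tyrosine, went from 371, 413 and 369 CPM to 109.5, 144 and 222 CPM (log2 fold change -1.28, SE 0.24, adjusted p = 0.00493). Fkbp5 and Per1, which also respond to the hormone, had log2 fold changes of 0.17 and -0.23 and were not called. Mt2, a metallothionein, stood at 10.2, 34.6 and 12.4 CPM against 2.47, 1.35 and 3.29 CPM (-2.98, SE 0.55), while its neighbour Mt1 averaged 346 and 354 CPM (0.03, not called). A transcript on the opposite strand overlaps 73.5% of the exon bases of Mt2. Slc30a10, which exports manganese, fell by 1.23.

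**Figure D5:**
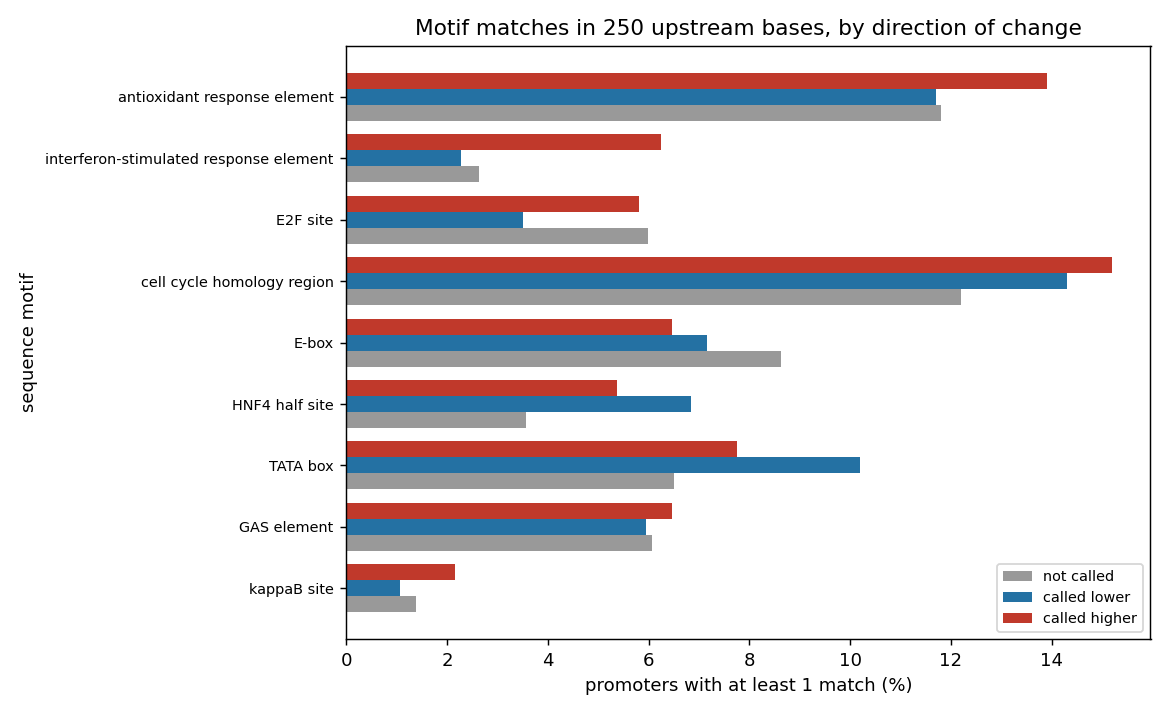
Share of promoters (250 bases before the start) with at least 1 match to each of 9 motifs, for genes called higher (red), called lower (blue) and not called (grey). The interferon-stimulated response element stands at 6.24% in rises against 2.64% in genes not called.

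The antioxidant response element, searched as TGACNNNGC, was in 13.9% of rises, 11.7% of falls and 11.8% of genes not called. E2F strings (TTCGCGC or TTGGCGC) were in 5.81% of rises and 5.98% of genes not called, and HNF4 strings (AAAGTCC) in 5.38% of rises, 6.85% of falls and 3.56% of genes not called. TATA boxes (TATAAA) were in 10.2% of falls and 6.51% of genes not called, and GC boxes (GGGCGG) in 46.6% and 58.5%. Matches of different motifs can overlap in 1 window, and the shares carry no test.

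Membrane transporters were called in both directions. Of 240 tested solute carriers 19 (7.92%) were higher, near the 8.59% over all genes, and 42 (17.5%) lower, against 6.5% over all genes. Without ANG8 replicate 1 there were 12 higher and 16 lower. The falls numbered 25, 25 and 26 without Ad_GFP replicate 1, Ad_GFP replicate 2 and ANG8 replicate 2. Beside Slc1a4, the rises held Slc48a1, which moves heme out of lysosomes (57.6, 54.4 and 79.0 against 226, 209.9 and 234 CPM, log2 fold change 1.81, SE 0.19, adjusted p = 0.000403), Slc15a3, a lysosomal peptide carrier (1.71), Slc7a8, a carrier of neutral amino acids (1.35), Slc40a1, the iron exporter ferroportin (1.03), and Slc2a1, the glucose carrier GLUT1 (0.98). The liver glucose carrier Slc2a2 moved the other way, from 444, 395 and 365 CPM to 192, 231 and 159 CPM (-1.05, SE 0.20, adjusted p = 0.00467). These genes kept their calls in every alternative. Slc2a4, the insulin-regulated glucose carrier of muscle and fat, read 10.6, 31.5 and 12.1 CPM against 1.94, 3.04 and 0.38 CPM (-3.37, SE 0.72, adjusted p = 0.0233), and its call was lost without ANG8 replicate 1 (0.0878). Of 41 ABC transporters 6 (14.6%) were called higher, among them Abcc4, Abcg1, which exports sterols (1.98), and Abcc12 (2.23). Another 5 (12.2%) were lower (1 without ANG8 replicate 1, and 3 without Ad_GFP replicate 1, Ad_GFP replicate 3, ANG8 replicate 2 or ANG8 replicate 3).

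Of heme genes, 3 of 16 (18.8%, against 8.59% over all genes) were higher and none lower. All 3 were genes of heme transport or breakdown: Slc48a1, Blvrb, a biliverdin reductase (1.49), and Hmox1, heme oxygenase. Hmox1 stood at 13.9, 9.54 and 14.97 CPM against 40.8, 28.1 and 43.7 CPM (log2 fold change 1.55, SE 0.22, adjusted p = 0.00125). The synthesis gene Alas1 averaged 444 and 353 CPM (-0.33, not called).

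Transcription factors of the zinc finger class were called rarely. Of 391 tested zinc finger factors of the C2H2 class 10 were higher and 9 lower, against 15.1% called over all genes. With any 1 library left out 3 to 8 were higher and 2 to 7 lower, and 20 were lower when the mitochondrial share entered the fit. Of 40 factors of the bZIP class 7 were higher and 6 lower. The rises numbered 3 without Ad_GFP replicate 2 or Ad_GFP replicate 3, 2 without ANG8 replicate 1 or ANG8 replicate 2, and 4 without ANG8 replicate 3. The falls numbered 0 without ANG8 replicate 1 and 3 without Ad_GFP replicate 1 or ANG8 replicate 3. Dbp and Tef, which follow the clock, fell by 0.91 each, from 97.4 to 162 CPM down to 57.8 to 72.7 CPM and from 269.9 to 375 CPM down to 139 to 190.2 CPM, and each lost its call without ANG8 replicate 1 (0.0508 and 0.0572). Of 10 E2F factors 3 were higher and none lower (1 higher without Ad_GFP replicate 3 or ANG8 replicate 1). Among the 31 listed liver factors Mlxipl, the carbohydrate-responsive factor ChREBP, went from 274, 529 and 351 CPM to 181, 165 and 135 CPM (log2 fold change -1.26, SE 0.24, adjusted p = 0.00537). Srebf1, which drives fatty acid synthesis, went from 477, 430.2 and 493 CPM to 252, 268 and 209.9 CPM (-0.94, SE 0.18). In all 4 of the 31 were lower and 1 higher (2 lower without Ad_GFP replicate 2 or ANG8 replicate 1, 8 lower when the mitochondrial share entered the fit, and 0 higher there and without Ad_GFP replicate 1, ANG8 replicate 1 or ANG8 replicate 2). Hnf4a, the main factor of hepatocyte identity, averaged 634 and 539 CPM (-0.23, not called), and Cebpa 616 and 422 CPM (-0.54, not called).

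In the reported fit few genes were called in several families of general cell machinery. None of 77 mitochondrial ribosomal protein genes was called by edgeR, with 7 at an unadjusted p under 0.05, 1 called by DESeq2 and 0 by limma voom, and their log2 fold changes ran from -0.60 to 0.46. Of 80 cytosolic ribosomal protein genes 1 was higher and 1 lower, of 48 proteasome subunits 1 and 1, of 45 ubiquitin-specific proteases 1 and 0, and of 313 genes with a Zfp symbol 4 and 4. The medians of these families lay between -0.11 and 0.16. Their counts moved when the mitochondrial share entered the fit: 16 proteasome subunits and 10 cytosolic ribosomal protein genes were then higher, 17 Zfp genes lower, and 2 mitochondrial ribosomal protein genes higher and 1 lower. Without ANG8 replicate 3, 4 mitochondrial ribosomal protein genes were lower, and with any 1 library left out 1 to 3 Zfp genes were higher and 0 to 3 lower. Respiratory chain families leaned lower. All 37 complex I subunits were on the lower side (median -0.39), and 5 (13.5%) were called lower, with 2 to 15 when 1 library was left out. Of 17 ATP synthase subunits 15 were on the lower side (median -0.41) and 1 was called lower, with 0 to 7 when 1 library was left out.

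Long noncoding RNAs had a lower share of rises than the 8.59% over all genes. Of 330 intergenic noncoding RNAs 12 (3.64%) were higher and 23 (6.97%) lower, near the 6.5% of falls over all genes, and of the transcripts annotated as antisense 8 (3.11%) were higher and 24 (9.34%) lower. With any 1 library left out 4 to 14 intergenic RNAs were higher and 15 to 21 lower, and 3 to 8 antisense transcripts were higher and 8 to 23 lower. When the mitochondrial share entered the fit, 38 intergenic and 39 antisense transcripts were lower. The strand setting of the counting is not given in the sources used here, so reads of an antisense transcript and of its partner cannot be told apart. Protein-coding genes had 1139 rises and 808 falls among 12558. The intergenic RNA 1810008I18Rik (chromosome 7, 65803111 to 65806449) went from 58.9, 45.0 and 46.9 CPM to 14.2, 7.86 and 14.1 CPM (log2 fold change -2.05, SE 0.23, adjusted p = 0.000451).

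A few genes were read in 1 group and nearly absent from the other. Gm20658, annotated as antisense (ENSMUSG00000093765, chromosome 12, 116102769 to 116138648, minus strand), had 0 counts in the 3 Ad_GFP libraries and 39, 36 and 33 counts in the ANG8 libraries, at least 39.4-fold higher against a floor of 3 counts over the control group (adjusted p = 0.000968). Acp7, an acid phosphatase, had 3 counts against 63 over the groups, and a transcript on the opposite strand overlaps 20.7% of its exon bases. In the other direction the pseudogene Mup-ps20 had 197, 61 and 18 counts in Ad_GFP and 0 in ANG8, at least 84.1-fold lower. The call of Mup-ps20 (adjusted p = 0.0308) was lost without Ad_GFP replicate 2 (0.142) or any ANG8 replicate (0.054, 0.0692 and 0.0628), when the mitochondrial share entered the fit (0.135) and with 12 libraries (0.118). Vmn1r90, a vomeronasal receptor gene that shares 22.5% of its transcript with other genes, had 89 counts against 3 and kept its call.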

How the data were processed

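Total liver RNA was extracted with Trizol and made into libraries with the NEBNext Ultra RNA kit, per the labels' protocols. The authors deposited unnormalized counts of reads for 54532 genes in 12 libraries. The build given in the submitters' processing notes is mm9, and the tools given there are featureCounts 1.5.0-p3 for counting and CASAVA 1.8.2. Of the gene identifiers 54495 are in GENCODE vM21 (GRCm38) and 53585 (98.3%) have identical coordinates there, so positions are given on GRCm38. Not given in the sources used here were the aligner, the annotation release and the strand setting.

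The 6 libraries of ANG8 and Ad_GFP, grouped by their labels, were fitted with edgeR 4.0.16 in R 4.3.3 (filterByExpr, TMM scaling, robust quasi-likelihood test), with p-values adjusted over 14070 genes by the Benjamini-Hochberg method and calls at an adjusted p under 0.05. SE is the log2 fold change divided by the square root of F. CPM values use the TMM-scaled totals. Replicates of a group differed by more than counting noise (chi-square per gene of 19.2 to 149.6). The fit was checked on simulated counts. Alternatives were upper-quartile and RLE factors, filters, the replicate block, the mitochondrial share as a covariate, each library left out, limma voom (3.58.1), DESeq2 (1.42.0), and all 12 libraries. For gene lists, families, factor classes and biotypes, leaving out libraries and the covariate were added after seeing the data.

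Named genes were Angptl8 and, among called genes of at least 1 in mean log2 CPM without overlap between groups and without a clone-type symbol, the 20 largest changes, 10 smallest p and 10 most abundant genes in each direction. To these came up to 3 called members of each list and of the 8 families with the largest share called in each direction, 3 noncoding RNAs in each direction and genes with at most 3 counts in a group. The 170 genes this names are joined in the text by list and family members chosen after their values were seen. Members, lists and rules were chosen with earlier results of these data known. A gene was treated as uncertain where at least 20% of its longest transcript's 50-base strings occur in another gene or of its exon bases overlap one, which held for 38 of the 170. Promoters are the 250 bases before the start in RefSeq (GRCm38.p6), matched by symbol for 10383 tested genes, 131 of them named. Motifs, 12 in all, were searched on both strands, and 1 of them is not reported here.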

Additional observations from a re-analysis of the deposited data

How the results depend on the processing

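The direction of every called gene was kept in each of the 17 alternatives that tested it. Of the 170 genes named by the rule, 123 were called in each alternative that tested them. A few genes did not pass the filter in every alternative. The count of calls was between 1978 and 2915 in the alternatives that left out no library. With any 1 library left out it was 933 to 1856 (615 to 1016 higher, 318 to 840 lower). It moved by over 1.5 times only without ANG8 replicate 1 (933) or Ad_GFP replicate 1 (1339). The falls alone also moved that far without ANG8 replicate 2 (601), and upward when the mitochondrial share was the covariate (1392). Leaving out a library fits fewer samples by construction, and for the covariate the cause was not tested. With the replicate number as a block 2523 genes were called, 1406 higher and 1117 lower, and 2064 of them were among the reported calls. The labels give both groups the numbers 1 to 3, but same-numbered libraries deviated from their group means with correlations of -0.075, 0.13 and 0.169, so the numbers were not taken to pair the samples, and 1 of the 3 did not correlate best with its own number among the ANG8 libraries. The difference in mitochondrial share was 3.71 to 14.4 percentage points with 1 library left out, with exact p of 0.2 to 0.6. In these smaller fits 0.2 is the lowest value that the exact two-sided permutation test can reach.

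With 3 libraries a group and a common biological coefficient of variation of 0.234, small changes of scarce genes were not detectable, so that a gene not called is not shown to be unchanged. All changes are relative to the scaled total of each library.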

Other observations

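Beside the groups of the report, several smaller families held mostly rises. Of 7 tested OAS genes, which sense double-stranded RNA, 5 were higher and none lower, and 4 of 6 Fc gamma receptors, 5 of 9 CC chemokines (1 lower) and 3 of 4 constant-region genes of the T cell receptor were higher. Of 31 serpins 8 were higher and 9 lower. The secreted liver inhibitors Serpina1d (1047, 594 and 629 CPM in Ad_GFP against 137, 154 and 225 CPM in ANG8, log2 fold change -2.14, SE 0.27, edgeR adjusted p = 0.00074) and Serpina6, the carrier of corticosteroids (-1.12), fell. Serpina1d and Serpina3g have near-identical neighbours, so the division of their reads is uncertain. Serpinb9, the intracellular inhibitor of granzyme B (4.82, 4.35 and 4.48 against 8.97, 10.1 and 11.8 CPM, 1.17, SE 0.24), Serpinb6b (2.11) and Serpina3g (1.66) rose. These 5 serpins kept their calls in every alternative, and the falls of the family numbered 5 without Ad_GFP replicate 1 and 4 without ANG8 replicate 1.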
